A study of Mus musculus with 8 samples.

Results

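The Hox and Cdx genes were followed across 8 RNA-seq libraries of mouse cells labelled haemogenic endothelium. All genes named Hoxa, Hoxb, Hoxc or Hoxd with a paralogue number were taken, together with Cdx1, Cdx2 and Cdx4. The rule used names only and no measured value, although it was set with earlier results of these data known. It gave 42 genes of the 41128 in the count table, 39 of them Hox genes, and 20 of the 42 passed the filter on low counts that left 14179 genes for testing.

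Hox genes encode homeodomain transcription factors that assign position along the head-to-tail axis. They lie in 4 clusters, HoxA, HoxB, HoxC and HoxD, and the paralogue number runs from the end of the cluster used early and anteriorly to the end used late and posteriorly. Cdx genes encode related homeodomain factors of the posterior embryo that act upstream of Hox genes, and in mouse embryonic stem (ES) cell cultures the Cdx-Hox route is known for its role in the formation of blood from mesoderm. Haemogenic endothelium is the endothelium from which blood cells emerge.

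The cells came from C57BL/6 ES cell lines, differentiated in culture, that were homozygous for a floxed (lox/lox) allele of Hdac1 or of Hdac2, the genes of a pair of class I histone deacetylases. Each line was given the agent 4OHT, the usual short form of 4-hydroxytamoxifen, or EtOH, the usual short form of its solvent ethanol, and each of the 4 groups had 2 libraries. The study concerned deletion of Hdac1 or Hdac2, and the labels name no recombinase, promoter, dose, day of harvest or number of clones. No label says that replicates were separate cultures, so p-values measure the spread between these libraries, which may be technical.

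Total counts ran from 10215792 to 19552380 per library. Levels are CPM (counts scaled to library size and by the trimmed mean of M values), and 3 counts corresponded to 0.15 to 0.287 CPM, depending on the library. Hdac1 was at 5.78 and 5.6 CPM in the EtOH libraries of its floxed line and at 6.99 and 7.12 CPM in the 4OHT libraries. Hdac2 was at 165.0 and 151.0 CPM in the EtOH libraries of its line and at 149.0 CPM in both 4OHT libraries. Reads outside the deleted part of a floxed gene can still be counted, so these values could not check the labels, and groups are named as labelled. All 11 markers of haemogenic endothelium and endothelium, among them Cdh5, Pecam1, Runx1 and Gfi1, were above 1 CPM in at least 1 library and summed to 3030 to 8750 CPM. Within the Hdac1 line, libraries resembled each other across the labels: over all tested genes, log2 CPM of EtOH replicate 2 and 4OHT replicate 1 had Pearson's r of 0.991, and EtOH replicate 1 and 4OHT replicate 2 had 0.983. The replicates of a group had 0.971 (Hdac1 EtOH), 0.981 (Hdac1 4OHT), 0.989 (Hdac2 EtOH) and 0.991 (Hdac2 4OHT). Over the 20 tested Hox and Cdx genes the 2 pairs across the labels had r of 0.990 and 0.980, against 0.872 and 0.865 between the Hdac1 replicates. Over all tested genes Hdac1 EtOH replicate 1 had r of 0.976 with Hdac2 EtOH replicate 2, above the 0.971 with its own replicate. With the other Hdac2 libraries it had 0.928 to 0.966. Over the 20 members Hdac1 EtOH replicate 1 had 0.909 to 0.93 with the Hdac2 libraries, and replicate 2 had 0.701 to 0.83. These are descriptions across genes that share libraries and depth.

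Members of all 4 clusters were detected, and HoxB carried most of the Hox counts in every library. The tested members were 8 of 10 HoxB genes (Hoxb2 to Hoxb9), 5 of 9 HoxD genes, 4 of 11 HoxA genes, 2 of 9 HoxC genes and Cdx2. The summed level of the HoxB genes was 63.9 to 223.0 CPM per library, that of HoxD 9.58 to 56.3 CPM, that of HoxA 4.15 to 16.5 CPM and that of HoxC 0.273 to 3.49 CPM. On the scale of mean CPM per kilobase of exon over the 8 libraries, the order was Hoxb2 (13), Hoxb4 (11.7), Hoxb5 (11.1), Hoxb8 (5.77), Hoxd8 (5.01), Hoxb6 (4.53), Hoxd9 (3.89), Cdx2 (2.99) and Hoxb3 (2.94). The first 3 do not separate from each other, since the libraries of each span a wider range than the gaps between them. Hoxb2 is a gene of the anterior end of the cluster, used in the hindbrain, and Hoxb4 is known for expanding blood progenitors from ES cells. Neighbours from Hoxb8 to Hoxb3 also had library ranges that overlapped. The median tested gene of the whole table had a mean of 26.4 CPM, and of the members only Hoxb2, Hoxb5 and Hoxb4 were above it.

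**Figure D1:**
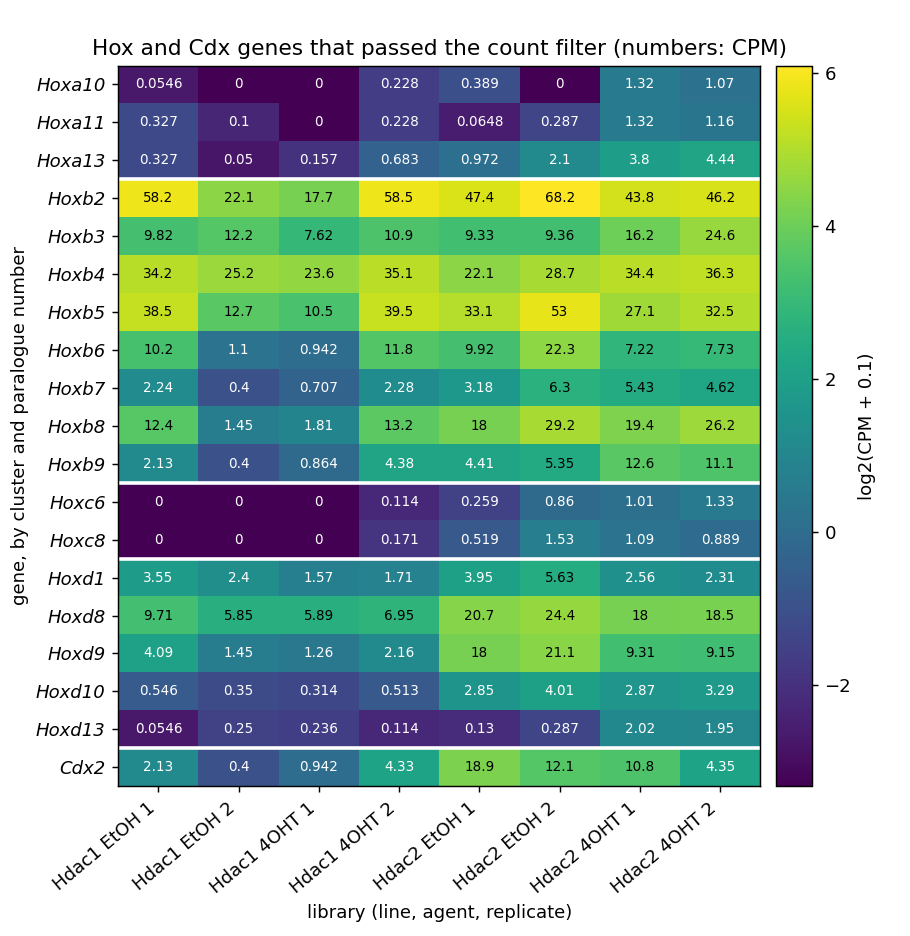
CPM of tested Hox and Cdx genes (rows, by cluster and paralogue number) in each of the 8 libraries (columns, by line, agent and replicate), with colour on a log2(CPM + 0.1) scale and the CPM printed in each cell. Hoxb2, Hoxb4 and Hoxb5 are the brightest rows, Hoxd13 is near 2 CPM in the 2 Hdac2 4OHT libraries alone, and Hoxb6 to Hoxb9 are dark in Hdac1 EtOH replicate 2 and Hdac1 4OHT replicate 1.

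The other 22 members stayed under the filter, which asks for about 0.687 CPM in at least 2 libraries. Hoxa6 and Hoxc12 had no count in any library, which allows up to 3 counts in each. Cdx1 and Hoxd12 had 1 count over the 8 libraries, Cdx4, Hoxc5 and Hoxc11 had 2, and Hoxa2, Hoxb13, Hoxc4 and Hoxd11 had 3. Hoxa4 had 7 counts, Hoxb1 10, Hoxc9 14, Hoxc13 17, Hoxd3 17, Hoxa7 19, Hoxa3 22, Hoxc10 24, Hoxa5 29, Hoxa9 30 and Hoxd4 54. Of these 22 genes, 12 overlap another gene of the table on the same strand, as Hoxa3 does with Hoxa4 to Hoxa6 and Hoxd3 with Hoxd4, and the counting of reads in shared exons is not stated. Their low counts are therefore uncertain as levels. Cdx2 was the tested member of its family.

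In the Hdac2 line, 3 of the 20 tested members passed the test in 4OHT against EtOH, all of them higher: Hoxd13, Hoxa11 and Hoxb3. Over all tested genes 36.1% were called, 18.9% higher and 17.2% lower, so a share of 15.0% among the members is not above the background. At an unadjusted p under 0.05 there were 6 members and 49.6% of all genes. The median log2 fold change of the members was 0.06, against -0.02 over all genes. Hoxa10, Hoxa11 and Hoxd13 reached the filter level in the Hdac2 4OHT libraries alone and so had to lean this way, and Hoxc6 and Hoxc8 needed at least 1 of those libraries to pass. Among the other 15 members 1 was called, Hoxb3, and their median was -0.15. Fewer cells that express a gene and less RNA per cell cannot be told apart in these bulk libraries.

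Hoxd13 and Hoxa11 are posterior genes, known from the limb, the genital tubercle and the urogenital tract, and both were close to absent outside the Hdac2 4OHT group. Values are given for replicate 1 and then replicate 2. Hoxd13 (mm10 chr2:74668310-74671599, plus strand) was at 0.13 and 0.287 CPM in the Hdac2 EtOH libraries, at 2.02 and 1.95 CPM in Hdac2 4OHT, at 0.0546 and 0.25 CPM in Hdac1 EtOH and at 0.236 and 0.114 CPM in Hdac1 4OHT. The Hdac2 4OHT libraries, with 26 and 22 counts, lay above the other 6, which had 1 to 5 counts each. The log2 fold change in the Hdac2 line was 3.28 ± 0.68 (SE, n = 2 per group, edgeR quasi-likelihood adjusted p = 0.014). Hoxa11 (chr6:52242106-52245810, minus strand) was at 0.0648 and 0.287 CPM in Hdac2 EtOH, at 1.32 and 1.16 CPM in Hdac2 4OHT, at 0.327 and 0.1 CPM in Hdac1 EtOH and at 0 and 0.228 CPM in Hdac1 4OHT. Again both Hdac2 4OHT libraries, with 17 and 13 counts, were above all others, which had 0 to 6. The change was 2.90 ± 0.95 on the log2 scale (SE, n = 2 per group, edgeR adjusted p = 0.047). Hoxa11 was not called under DESeq2, upper quartile scaling or scaling by library size alone, where the adjusted p was 0.072, 0.055 and 0.054, and over all alternatives it ran from 0.0083 to 0.23.

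The promoters of these 2 called genes, which lie on different chromosomes, are shown. Both reached the filter level in the Hdac2 4OHT libraries alone, so their rise in the same libraries is no support for a link between them. Each window runs from 250 bases before to 50 bases after the start of the RefSeq transcript (GRCm38.p6), 5′ to 3′ on the gene's strand. Matches to TTTATG or its reverse complement CATAAA, the core recognised by CDX factors, and to AGGTCA or TGACCT, the half-site of retinoid receptors, are in capitals wherever they occur. Neither of these 2 windows (chr6:52245761-52246060, minus strand, and chr2:74667975-74668274, plus strand) held such a match, which says only that these letters are not in the window. They differ in base composition, with 51.0% G or C and 15 CpG in Hoxa11 and 74.3% and 37 CpG in Hoxd13.
Hoxa11: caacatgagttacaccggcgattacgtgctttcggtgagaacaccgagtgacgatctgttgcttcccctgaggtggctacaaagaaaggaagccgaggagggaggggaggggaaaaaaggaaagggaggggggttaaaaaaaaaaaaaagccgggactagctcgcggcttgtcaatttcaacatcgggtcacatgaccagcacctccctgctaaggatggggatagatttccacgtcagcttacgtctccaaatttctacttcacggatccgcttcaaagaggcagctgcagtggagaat
Hoxd13: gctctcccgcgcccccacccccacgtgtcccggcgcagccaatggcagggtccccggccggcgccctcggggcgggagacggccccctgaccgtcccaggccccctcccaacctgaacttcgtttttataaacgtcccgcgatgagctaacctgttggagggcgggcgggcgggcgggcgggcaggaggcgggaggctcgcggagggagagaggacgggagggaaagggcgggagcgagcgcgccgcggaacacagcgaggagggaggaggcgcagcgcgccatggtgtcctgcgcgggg

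Hoxb3 (chr11:96323326-96347930), an anterior gene used in the hindbrain and expressed in blood progenitors, was at 9.33 and 9.36 CPM in Hdac2 EtOH and at 16.2 and 24.6 CPM in Hdac2 4OHT. The Hdac1 libraries were at 9.82 and 12.2 CPM (EtOH) and at 7.62 and 10.9 CPM (4OHT). Both Hdac2 4OHT libraries were thus the highest of the 8, although they differed from each other by 1.52 times. Hoxb3 rose by 1.13 ± 0.28 on the log2 scale (SE, n = 2 per group, edgeR adjusted p = 0.022). It shares bases with the antisense gene Hoxb3os on the other strand, which had 305 counts in all and a log2 fold change of 0.09 ± 0.60 (adjusted p = 0.91). The strand setting of the counting is not stated.

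Hoxa10 and Hoxa13, posterior genes of the HoxA cluster, had positive differences in this comparison that missed the threshold. Their log2 fold changes in the Hdac2 line were 2.38 (Hoxa10, edgeR adjusted p = 0.10) and 1.45 (Hoxa13, edgeR adjusted p = 0.11). Summed over Hoxa10, Hoxa11 and Hoxa13, the level was 1.43 and 2.39 CPM in Hdac2 EtOH and 6.44 and 6.66 CPM in Hdac2 4OHT. Hoxa10 and Hoxa11 reached the filter level in the Hdac2 4OHT libraries alone, so this sum is no support for a shift.

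Of the HoxD genes other than Hoxd13, none passed the test, and all 4 had negative log2 fold changes. Hoxd9 was at 18.0 and 21.1 CPM in Hdac2 EtOH and at 9.31 and 9.15 CPM in Hdac2 4OHT. Its libraries did not overlap, and the change of -1.08 ± 0.43 (SE) had an edgeR adjusted p of 0.081. Hoxd1, the most anterior gene of the cluster, differed by -0.97 ± 0.34 (adjusted p = 0.059). The values of Hoxd8 and Hoxd10 were -0.30 and -0.15. The ratio of Hoxd9 to Hoxd8 counts, read against itself across libraries, was 0.868 and 0.867 in Hdac2 EtOH and 0.517 and 0.495 in Hdac2 4OHT.

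Among the HoxB genes other than Hoxb3, differences ran from -1.10 (Hoxb6, adjusted p = 0.45) to 1.29 (Hoxb9, adjusted p = 0.19), and none passed the test. Hoxb9, the most posterior gene of the cluster but for Hoxb13, was at 4.41 and 5.35 CPM in Hdac2 EtOH and at 12.6 and 11.1 CPM in Hdac2 4OHT. Hoxb6, nearer the middle of the cluster, was at 9.92 and 22.3 CPM in EtOH and at 7.22 and 7.73 CPM in 4OHT. In both genes the 2 groups did not overlap, but the spread in the Hdac1 libraries, which enters the shared error, was large. Hoxb4 was at 22.1 and 28.7 CPM in Hdac2 EtOH and at 34.4 and 36.3 CPM in Hdac2 4OHT (log2 fold change 0.48 ± 0.25 SE, adjusted p = 0.16). Hoxb8, a gene of myeloid progenitors, was at 18.0 and 29.2 CPM in Hdac2 EtOH and at 19.4 and 26.2 CPM in Hdac2 4OHT, with a 95% interval of -2.25 to 2.16 for the log2 fold change. Hoxb2 was at 47.4 and 68.2 CPM against 43.8 and 46.2 CPM, and Hoxb5 at 33.1 and 53.0 CPM against 27.1 and 32.5 CPM, both lower in each 4OHT library without passing the test. Cdx2 was at 18.9 and 12.1 CPM in Hdac2 EtOH and at 10.8 and 4.35 CPM in Hdac2 4OHT, also without overlap and without a call (-1.03 ± 0.77 SE, adjusted p = 0.31).

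Over all 20 members, 9 had both 4OHT libraries of the Hdac2 line above both EtOH libraries and 7 had both below, where 38.6% and 39.7% of all tested genes did. Among the 9 were Hoxa10, Hoxa11, Hoxd13 and Hoxc6, which needed Hdac2 4OHT libraries to pass the filter. The count is therefore no support for a shift. The number called moved with the libraries fitted: it was 11 when the Hdac2 line was fitted alone, 6 without Hdac1 EtOH replicate 1 or replicate 2, and 0 without any 1 of the 4 Hdac2 libraries, where the lone library left in its group was taken to vary like the other groups. Upper quartile scaling moved the median log2 fold change of all genes to -0.15 and library-size scaling to -0.14. The 3 called members stayed positive under every alternative tried.

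Marker genes of several cell types moved in the same comparison, in which 36.1% of all tested genes were called. In Hdac2 EtOH the 11 endothelial markers, those of haemogenic endothelium included, summed to 3030 and 3260 CPM. In Hdac2 4OHT they summed to 6720 and 8750 CPM, with 6 called higher and 0 lower. Not every marker of this list rose. Runx1 had a mean of 93.1 CPM in Hdac2 EtOH and 73.1 CPM in Hdac2 4OHT, and Gfi1 of 11.8 and 11.4 CPM. Runx1 and Kit were lower in both Hdac2 4OHT libraries than in both Hdac2 EtOH libraries, without a call. The 8 blood markers summed to 1310 and 1210 CPM against 256 and 176 CPM, with 1 called higher and 5 lower. The 9 smooth muscle and mesenchyme markers summed to 2200 and 1570 CPM against 6520 and 4320 CPM (4 higher, 0 lower), and the 5 visceral and gut endoderm markers to 48.5 and 53.3 CPM against 218.0 and 231.0 CPM (2 higher, 0 lower of 3 tested), with Apoa1 and Ttr under 1 CPM throughout. Most of the smooth muscle and mesenchyme sum was Acta2 (1520 and 1170 CPM against 4740 and 3130 CPM) and Tagln. Col1a1 and Pdgfrb had higher means in Hdac2 4OHT and Col1a2, Pdgfra and Twist1 lower means, none of them called. Nearly all of the endoderm sum was Sox17 (47.6 and 52.8 CPM against 211.0 and 226.0 CPM), which is also in the endothelial list, and Foxa2 was at 0.389 and 0.382 CPM against 4.97 and 3.02 CPM. Of the 5 paraxial and limb mesoderm markers, Pax3, Tbx5 and Meox1 were under 1 CPM in every library, and the sum was 7.54 to 9.53 CPM in EtOH and 4.44 to 5.12 CPM in 4OHT (0 higher, 1 lower of 2 tested). The 6 cardiac markers summed to 15.9 to 30.5 CPM and 23.8 to 27.3 CPM (2 higher, 1 lower of 5 tested), with Actn2 under 1 CPM throughout. The part of these shifts in the Hox differences was not tested. Pluripotent markers summed to 1.01 to 4.11 CPM over all 8 libraries, with Nanog, Zfp42, Dppa5a and Esrrb under 1 CPM throughout and 1 of 2 tested, Sox2, called lower. Of the 6 neural markers 5 were under 1 CPM in every library, among them Neurod1, Pax6, Sox1 and Otx2. The other, Tubb3, was at 64.2 and 26.2 CPM in Hdac2 EtOH and at 80.5 and 28.0 CPM in Hdac2 4OHT, and it was not called.

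In the Hdac1 line no member passed the test in 4OHT against EtOH, and no gene of the whole table did (0.0% of 14179, edgeR). The groups of this comparison rest on labels across which the libraries resembled each other, and an exchange of labels was not tested. At an unadjusted p under 0.05 there were 947 genes (6.68%), 1 of them a member, and DESeq2 called 32 genes and 0 members. That member was Hoxd1, at 3.55 and 2.40 CPM in Hdac1 EtOH and at 1.57 and 1.71 CPM in Hdac1 4OHT (log2 fold change -0.85 ± 0.35 SE, edgeR adjusted p = 0.73). It was the 1 member whose groups did not overlap, while 15.8% of all tested genes had both 4OHT libraries above both EtOH libraries and 15.4% both below. Hoxa10, Hoxc6 and Hoxc8 had at most 4 counts per group in this line, too few for a fold change. The remaining 16 members lay between -0.67 (Hoxa11) and 1.23 (Hoxa13). The 95% intervals left room for large effects in several of them, such as -2.14 to 2.43 for Hoxb8 and -2.35 to 2.78 for Hoxb6, and were narrow for Hoxb4 (-0.59 to 0.57) and Hoxb3 (-0.89 to 0.40).

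The wide intervals went with replicates that differed by several fold. Hoxb6 was at 10.2 and 1.10 CPM in Hdac1 EtOH and at 0.942 and 11.8 CPM in Hdac1 4OHT, a spread of 9.22 and 12.5 times between the replicates of each group. Hoxb8 was at 12.4 and 1.45 CPM and at 1.81 and 13.2 CPM (8.54 and 7.28 times), and Hoxb9 at 2.13 and 0.40 CPM and at 0.864 and 4.38 CPM (5.32 and 5.08 times). EtOH replicate 2 and 4OHT replicate 1 were thus the low libraries for each of these genes. Cdx2 showed the same order, at 2.13 and 0.40 CPM and at 0.942 and 4.33 CPM (5.32 and 4.59 times). Replicates of Hoxb7 differed by 5.59 and 3.22 times. Hoxb2 was at 58.2 and 22.1 CPM and at 17.7 and 58.5 CPM (2.63 and 3.3 times), and Hoxb5 at 38.5 and 12.7 CPM and at 10.5 and 39.5 CPM (3.04 and 3.76 times). Hoxb4 was at 34.2 and 25.2 CPM and at 23.6 and 35.1 CPM (1.36 and 1.48 times).

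Read along the cluster, the ratio of Hoxb8 to Hoxb4 counts within a library, set against itself across libraries, was 0.363 and 0.0575 in Hdac1 EtOH and 0.0764 and 0.375 in Hdac1 4OHT. In the Hdac2 line it was 0.812 and 1.02 (EtOH) and 0.564 and 0.721 (4OHT), above all 4 Hdac1 libraries. For Hoxb6 to Hoxb9 against Hoxb2 to Hoxb4, the ratio of summed counts was 0.263 and 0.0563, 0.0881 and 0.302, 0.449 and 0.595, and 0.474 and 0.464 in the same order of groups. Hoxb9 to Hoxb4 was highest in Hdac2 4OHT, at 0.368 and 0.306, and lowest in Hdac1 EtOH replicate 2, at 0.0159. Of members with at least 10 counts in a library of the group, 9 of 14 (64.3%) differed more than 2-fold between the replicates in Hdac1 EtOH, where 12.7% of all tested genes did. In Hdac1 4OHT it was also 9 of 14, against 8.43% of genes, in Hdac2 EtOH 3 of 16 (18.8%) against 5.92%, and in Hdac2 4OHT 1 of 20 (5.0%, Cdx2) against 3.85%. The blood markers were higher in Hdac1 EtOH replicate 1 (750.0 CPM) than in replicate 2 (336.0 CPM) and higher in 4OHT replicate 2 (491.0 CPM) than in replicate 1 (226.0 CPM). Krt18, a keratin gene of the trophoblast list, had the same order (165.0 and 51.4 CPM in EtOH, 67.8 and 215.0 CPM in 4OHT), and Eomes of that list the opposite (3.11 and 7.70 CPM, 7.54 and 3.70 CPM). The endothelial markers summed in the order opposite to the blood markers, to 4100 and 6010 CPM in EtOH and 6360 and 4700 CPM in 4OHT. Kit of that list followed the blood markers (185.0 and 107.0 CPM, 56.5 and 102.0 CPM). The part of these differences in the Hox spread was not tested.

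**Figure D2:**
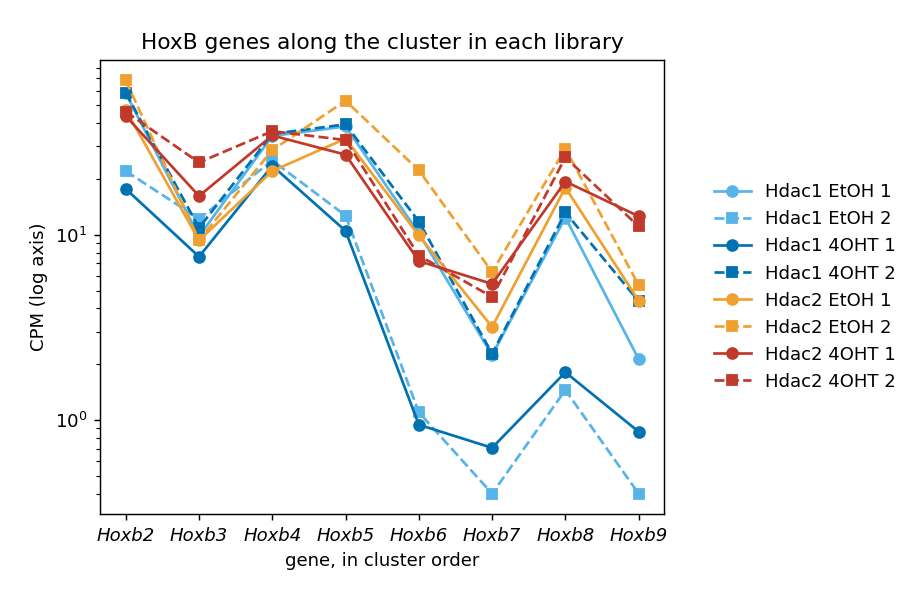
CPM (log axis) of the 8 tested HoxB genes in cluster order, 1 line per library, with circles for replicate 1 and squares for replicate 2. The libraries lie close together at Hoxb4 (22.1 to 36.3 CPM), and from Hoxb6 to Hoxb9 Hdac1 EtOH replicate 2 and Hdac1 4OHT replicate 1 fall below the other 6.

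The promoter of Hoxb8 is shown because Hoxb8 was the 1 tested member whose window held the CDX core. The window (chr11:96281655-96281954, plus strand) has 2 matches, TTTATG and CATAAA, in capitals, with 42.3% G or C and 13 CpG.
Hoxb8: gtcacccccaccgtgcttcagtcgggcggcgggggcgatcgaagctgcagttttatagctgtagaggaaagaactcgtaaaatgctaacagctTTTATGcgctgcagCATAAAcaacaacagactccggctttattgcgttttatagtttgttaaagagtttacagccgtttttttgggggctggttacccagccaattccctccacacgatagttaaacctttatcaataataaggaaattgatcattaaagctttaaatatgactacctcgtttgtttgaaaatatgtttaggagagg

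No member passed the test of the difference between the lines in their response to 4OHT, a comparison in which 4 of all genes did (0.0282%). At an unadjusted p under 0.05 there were 3973 genes (28.0%) and 3 members. These were Hoxb3, with a difference of 1.37 ± 0.40 (log2, SE, edgeR adjusted p = 0.098), Hoxd13 with 3.18 ± 1.16 (0.13) and Hoxa11 with 3.58 ± 1.5 (0.17). Each was more positive in the Hdac2 line. Hoxd13 and Hoxa11 reached the filter level in the Hdac2 4OHT libraries alone, so the filter favoured this sign for them. Calls of members in the Hdac2 line and none in the Hdac1 line are therefore not shown to differ between the lines. DESeq2 called 1 member, Hoxb3, as did the fit without a filter on low counts, and leaving out Hdac1 EtOH replicate 1 gave 2, Hoxb3 and Hoxd13. Over the alternatives the adjusted p of Hoxb3 ran from 0.010 to 0.33.

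Between the EtOH libraries of the lines, 5 of the 20 tested members were higher in the Hdac2 line and 0 lower: Hoxd8, Hoxd9, Hoxd10, Hoxc8 and Cdx2. Over all tested genes 9.33% were called, 2.91% higher and 6.42% lower, and at an unadjusted p under 0.05 there were 9 members and 33.0% of all genes. The members' median log2 difference was 1.65, against -0.01 over all genes. It is no support for a shift, since Hoxa10, Hoxa11, Hoxa13, Hoxc6, Hoxc8, Hoxd10 and Hoxd13 passed the filter through Hdac2 libraries alone. Among the 13 others 3 were called, Hoxd8, Hoxd9 and Cdx2, and their median was 1.52. These EtOH libraries are also the controls of the 4OHT comparisons. The floxed gene and anything else that separates the lines cannot be told apart.

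The 3 HoxD genes are neighbours from the middle to the posterior part of their cluster. Hoxd8 (chr2:74704615-74707933) was at 9.71 and 5.85 CPM in Hdac1 EtOH and at 20.7 and 24.4 CPM in Hdac2 EtOH, and it differed by 1.53 ± 0.27 on the log2 scale (SE, n = 2 per group, edgeR adjusted p = 0.025). Hoxd9 (chr2:74697727-74700208) was at 4.09 and 1.45 CPM against 18.0 and 21.1 CPM, a difference of 2.82 ± 0.46 (adjusted p = 0.023). Hoxd10 (chr2:74691924-74695105), a gene of the limb and lumbar region, was at 0.546 and 0.35 CPM against 2.85 and 4.01 CPM, a difference of 2.91 ± 0.43 (adjusted p = 0.018). For all 3 genes every Hdac2 library, 4OHT included, was above every Hdac1 library: in 4OHT Hoxd8 was at 5.89 and 6.95 CPM for Hdac1 and at 18.0 and 18.5 CPM for Hdac2. Hoxd9 was at 1.26 and 2.16 CPM against 9.31 and 9.15 CPM there, and Hoxd10 at 0.314 and 0.513 CPM against 2.87 and 3.29 CPM. Hoxd13, at the end of the same cluster, was under 0.3 CPM in all 4 EtOH libraries. Hoxd8 shares bases with the antisense gene Hoxd3os1 on the other strand, which had 166 counts in all and an EtOH difference of 0.44 ± 0.53 (adjusted p = 0.59).

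Each of these 3 neighbours was called higher in the Hdac2 line, and Hoxd10 passed the filter through Hdac2 libraries alone. Their promoters are shown in the same RefSeq windows (GRCm38.p6, all on the plus strand). They are chr2:74704365-74704664 for Hoxd8, chr2:74697513-74697812 for Hoxd9 and chr2:74691641-74691940 for Hoxd10. Those of Hoxd8 and Hoxd10 hold 1 retinoid half-site each, in capitals, and that of Hoxd9 holds neither motif. The share of G or C is 46.7%, 68.3% and 62.7%, with 6, 20 and 22 CpG.
Hoxd8: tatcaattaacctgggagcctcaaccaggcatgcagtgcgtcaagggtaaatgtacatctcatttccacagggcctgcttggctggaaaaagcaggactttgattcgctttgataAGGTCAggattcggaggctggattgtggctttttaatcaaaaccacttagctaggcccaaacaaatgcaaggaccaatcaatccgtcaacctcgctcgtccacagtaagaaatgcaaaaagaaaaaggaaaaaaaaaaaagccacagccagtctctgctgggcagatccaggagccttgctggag
Hoxd9: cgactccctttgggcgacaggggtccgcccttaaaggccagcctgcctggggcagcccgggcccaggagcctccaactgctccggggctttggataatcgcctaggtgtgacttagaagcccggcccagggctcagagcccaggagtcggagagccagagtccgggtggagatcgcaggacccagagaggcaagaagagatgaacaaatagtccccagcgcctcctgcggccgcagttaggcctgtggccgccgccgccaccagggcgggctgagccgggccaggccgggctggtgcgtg
Hoxd10: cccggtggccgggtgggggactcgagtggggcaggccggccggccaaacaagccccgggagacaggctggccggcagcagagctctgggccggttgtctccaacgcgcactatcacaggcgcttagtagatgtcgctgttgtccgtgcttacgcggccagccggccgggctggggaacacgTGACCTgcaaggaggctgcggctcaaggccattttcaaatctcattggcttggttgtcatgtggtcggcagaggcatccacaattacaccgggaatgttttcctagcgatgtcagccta

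Cdx2 (chr5:147300805-147307270, minus strand) was at 2.13 and 0.40 CPM in Hdac1 EtOH and at 18.9 and 12.1 CPM in Hdac2 EtOH. The groups were far apart, although the Hdac1 replicates differed by 5.32 times, and the difference was 3.63 ± 0.87 on the log2 scale (SE, n = 2 per group, edgeR adjusted p = 0.044). Cdx2 was not called without a filter on low counts, with the replicate number as a block or with the EtOH groups fitted alone (edgeR adjusted p = 0.15, 0.076 and 0.056). Over the alternatives with 2 libraries per group the adjusted p ran from 0.00014 (DESeq2) to 0.15. With single libraries left out the log2 difference ran from 2.86 to 5.25. Cdx2 is also a gene of trophoblast, whose 5 markers summed to 169.0 and 60.1 CPM in Hdac1 EtOH and to 272.0 and 173.0 CPM in Hdac2 EtOH, with 0 of 3 tested markers called and Elf5 and Krt7 under 1 CPM throughout. Nearly all of this sum was Krt18 (165.0 and 51.4 CPM against 266.0 and 169.0 CPM). Eomes was at 3.11 and 7.70 CPM against 2.59 and 1.24 CPM, and Tfap2c at 0.327 and 0.85 CPM against 2.72 and 1.53 CPM. The part of trophoblast-like expression in the Cdx2 difference was not tested.

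Hoxc8, a gene of the thoracic region, had no count in either Hdac1 EtOH library and 8 and 16 counts in the Hdac2 EtOH libraries (0.519 and 1.53 CPM). Against a floor of 3 counts over the group, the ratio was 11.8-fold, higher in the Hdac2 line (edgeR adjusted p = 0.040). Hoxc6, its neighbour, had 0 counts against 4 and 9 in the same libraries, a lower bound of 6.41-fold with an adjusted p of 0.055. In Hdac2 4OHT the 2 genes were at 1.09 and 0.889 CPM (Hoxc8) and at 1.01 and 1.33 CPM (Hoxc6), and in Hdac1 4OHT they were seen in replicate 2 alone, with 3 and 2 counts. Both lie within the long gene Hoxc5, which had 2 counts. The ratios leave out the error of the Hdac2 EtOH counts, and such floors cover counting error only.

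Of the members that missed the threshold, Hoxa13 had the largest difference with counts in both groups, 2.97 (adjusted p = 0.061), and Hoxb7, Hoxb8 and Hoxb9 had differences of 1.84 (0.14), 1.77 (0.25) and 1.95 (0.14), with edgeR adjusted p in brackets. The anterior HoxB genes Hoxb3 and Hoxb4 were at -0.24 (95% interval -0.89 to 0.41) and -0.23 (-0.81 to 0.35). By paralogue number, 0 of 4 tested genes numbered 1 to 3 were called, 2 of 8 numbered 4 to 8 and 2 of 7 numbered 9 to 13. Of these last 7, Hoxa10, Hoxa11, Hoxa13, Hoxd10 and Hoxd13 passed the filter through Hdac2 libraries alone, so no order by paralogue number is read from them. In 11 members both Hdac2 EtOH libraries were above both Hdac1 EtOH libraries and in 1, Hoxb3, both were below, where 29.9% and 30.3% of all tested genes did so. Among the 11 were Hoxa13, Hoxc6, Hoxc8 and Hoxd10, which passed the filter through Hdac2 libraries alone, so the count is no support for a shift.

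The count of 5 rested on single libraries. It was 9 without Hdac1 EtOH replicate 1, 1 without Hdac1 EtOH replicate 2 (Hoxd9), 0 without either Hdac2 EtOH library and 1 without either Hdac2 4OHT library, and 0 when the EtOH groups were fitted alone. The endothelial markers summed to 4100 and 6010 CPM in Hdac1 EtOH and to 3030 and 3260 CPM in Hdac2 EtOH, with 1 of 11 called in each direction. The blood markers summed to 750.0 and 336.0 CPM against 1310 and 1210 CPM, with 1 of 8 called higher. Of the cardiac markers 2 of 5 tested were lower in the Hdac2 line, Myh7 (-4.16) and Myh6 (-3.56), of the endoderm markers 1 of 3, Foxa2 (-3.15), and of the pluripotent markers 1 of 2 was higher, Sox2 (3.18). Sox2 passed the filter through Hdac2 libraries alone and Myh6 through Hdac1 EtOH libraries alone, so the filter favoured these 2 signs. The part of these markers in the Hox and Cdx differences was not tested.

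**Figure D3:**
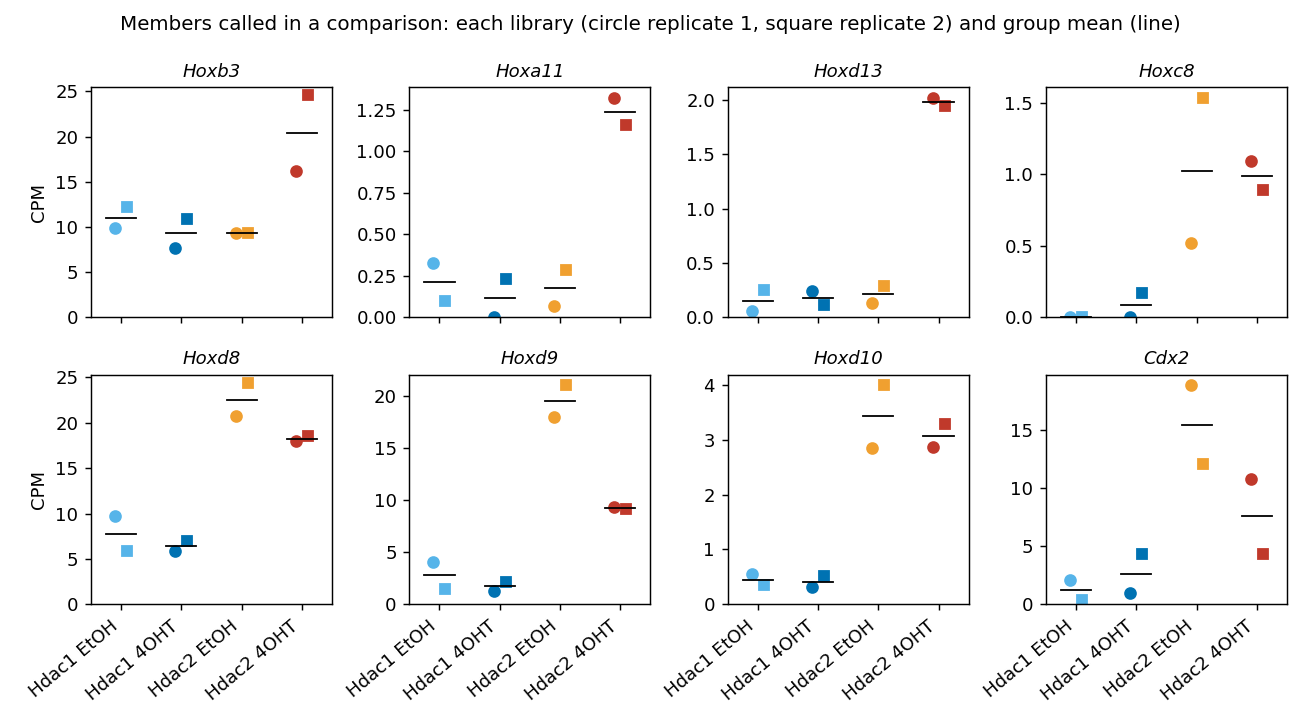
CPM (linear axis, from 0, 1 panel per gene) of the 8 members called in a comparison, with a circle for replicate 1, a square for replicate 2 and a line at the mean of each of the 4 groups. Hoxb3, Hoxa11 and Hoxd13 are highest in the Hdac2 4OHT group, and Hoxd8, Hoxd9 and Hoxd10 are higher in both Hdac2 groups than in both Hdac1 groups.

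**Figure D4:**
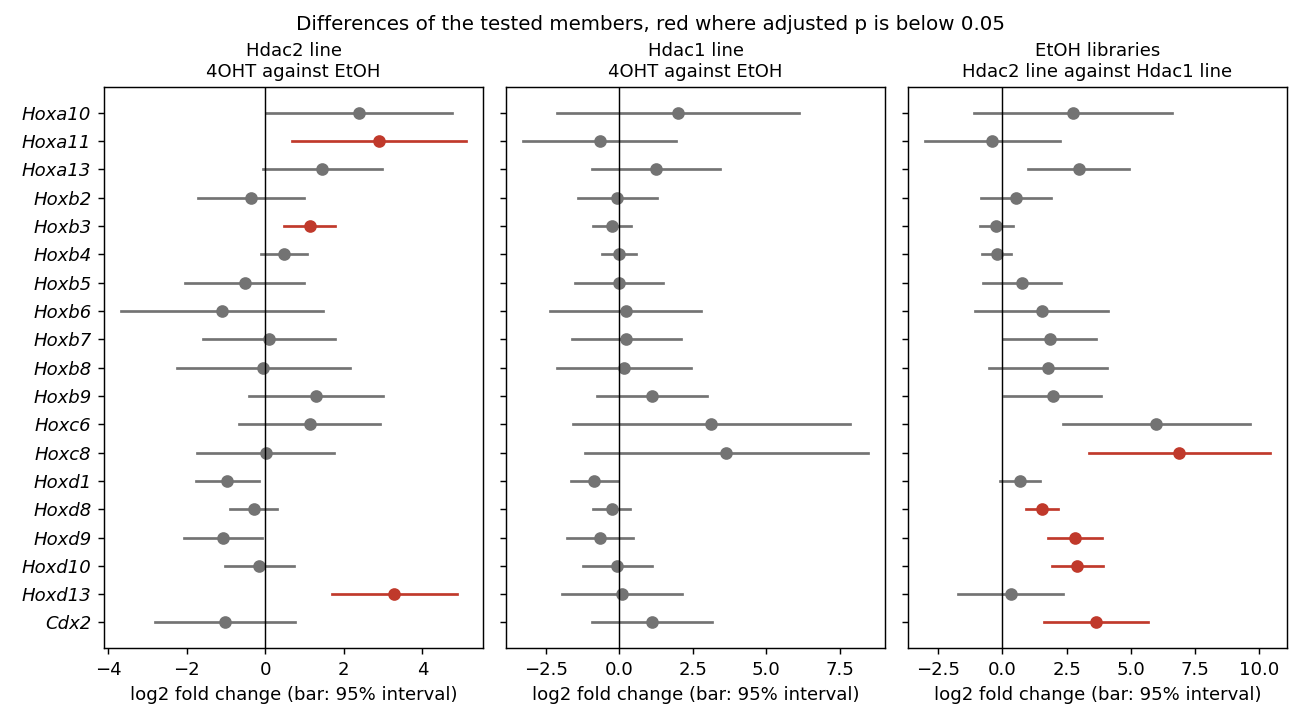
Log2 fold change of tested members (point) with its 95% interval (bar) in the 3 comparisons of groups, red where the edgeR adjusted p is below 0.05, with a separate horizontal scale in each panel. Red points are Hoxa11, Hoxb3 and Hoxd13 on the left, none in the middle, and Hoxc8, Hoxd8, Hoxd9, Hoxd10 and Cdx2 on the right, where the points of Hoxc6 and Hoxc8 are fitted values against groups with no counts.

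Promoter windows were found for 24 of the 42 members, 11 of them tested. Their median share of G or C was 56.5% (39.7% to 81.0%) with a median of 13.5 CpG, against 52.7% and 7.0 for the 27025 windows of the same length in the table. The CDX core TTTATG was in 5 of the 24 windows (20.8%) and in 12.1% of all windows, and the retinoid half-site AGGTCA in 7 (29.2%) and in 16%. The PBX-HOX composite TGATTNAT was in 1 window (3.36% of all windows) and the MEIS core TGACAG in 2 (19.3% of all). Both strands were searched in each case, and the CDX core can share bases with the PBX-HOX composite. A match is a description of the window and not a bound site.

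HOX proteins bind DNA with partner homeodomain proteins of the PBX, MEIS and PREP families. Of 9 genes for these cofactors, all tested, 1 was higher and 0 lower in Hdac2 4OHT against EtOH. This was Meis2, at 4.34 and 7.93 CPM in EtOH and at 16.9 and 21.9 CPM in 4OHT (log2 fold change 1.67 ± 0.31 SE, edgeR adjusted p = 0.012). Between the EtOH libraries 0 were higher and 1 lower in the Hdac2 line: Meis1, a partner of posterior HOX proteins in blood progenitors, at 72.1 and 55.5 CPM in Hdac1 EtOH against 15.0 and 20.5 CPM in Hdac2 EtOH (-1.85 ± 0.24 SE, adjusted p = 0.017). The medians of the list were -0.02 and -0.28 in these comparisons, in which 36.1% and 9.33% of all tested genes were called. Meis1 was thus lower in the EtOH libraries in which Hoxd8 to Hoxd10 were higher.

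Trithorax proteins keep Hox clusters active and Polycomb proteins keep them silent. Of 27 genes of these groups, all tested, 6 were higher and 2 lower in Hdac2 4OHT, where 36.1% of all genes were called, and their median was 0.13. Kmt2a, which encodes the histone methyltransferase that maintains Hox expression, was at 19.6 and 20.3 CPM in EtOH and at 118.0 and 166.0 CPM in 4OHT (2.83 ± 0.53 SE, edgeR adjusted p = 0.012). In the Hdac1 line Kmt2a was at 49.8 and 155.0 CPM (EtOH) and at 109.0 and 62.5 CPM (4OHT), so its replicates differed there as well. Dot1l, for another histone methyltransferase, rose by 1.28 ± 0.25 (0.013), while Wdr5, for a core subunit of the KMT2 complexes, was at -0.76 ± 0.14 (0.012). Between the EtOH libraries 0 were higher and 10 lower in the Hdac2 line, where 6.42% of all genes were lower, and their median was -0.49. Among these were Kdm6b (-1.20, adjusted p = 0.020), Jarid2 (-0.99, 0.029) and Dot1l (-1.24, 0.033).

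Posterior Hox and Cdx genes are induced by WNT, FGF and GDF signals of the primitive streak, and anterior Hox genes by retinoic acid. Of 22 genes of the posterior list 9 were tested, and 1 was higher and 2 lower in Hdac2 4OHT. Over all tested genes 36.1% were called in that comparison and 9.33% between the EtOH libraries, for this list and the next. Gdf11, a ligand that sets the onset of posterior Hox genes in the trunk, rose from 3.63 and 2.96 CPM to 15.2 and 11.5 CPM (2.01 ± 0.34 SE, edgeR adjusted p = 0.010). Lin28a (-0.92, 0.023) and Wnt3 (-1.38, 0.037) were lower. Between the EtOH libraries Wnt5a, a noncanonical WNT ligand of the posterior embryo, was at 12.3 and 13.6 CPM in Hdac1 EtOH against 55.8 and 56.6 CPM in Hdac2 EtOH (2.12 ± 0.25 SE, 0.014), and Sall4 was lower (-0.70, 0.048). Of 14 retinoic acid genes 9 were tested, and 2 were higher in Hdac2 4OHT: Rdh10 (1.09, 0.017) and Aldh1a1 (3.54, 0.040), which encode enzymes that make retinoic acid from retinol. Between the EtOH libraries 1 was higher, Crabp1 (3.06, 0.039), for a retinoic acid binding protein. Crabp1 was under the filter level in all Hdac1 libraries, so the filter favoured this sign. In the Hdac1 line, and in the test between the lines, 0 genes of any of these lists were called.

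Genes that flank the clusters were called in both directions. Over all tested genes 36.1% were called in Hdac2 4OHT against EtOH and 9.33% between the EtOH libraries. Of the 3 nearest protein-coding genes on each side of each cluster, 24 in all, 21 were tested. In Hdac2 4OHT 2 were higher, Tax1bp1 beyond HoxA (0.61, edgeR adjusted p = 0.026) and Atf7 beyond HoxC (1.59, 0.015), and 2 lower, Skap1 beyond HoxB (-2.45, 0.041) and Mtx2 beyond HoxD (-0.95, 0.011). Evx1, a homeobox gene at the posterior end of HoxA, was at 0.327 and 0.15 CPM in Hdac1 EtOH and at 2.01 and 1.53 CPM in Hdac2 EtOH (2.87 ± 0.58 SE, adjusted p = 0.032). It was the 1 flanking gene called between the EtOH libraries. Evx1 was at 0.683 CPM or less in the Hdac1 libraries and passed the filter only with Hdac2 libraries, which favoured this sign. Within the clusters lay 44 further genes, mostly noncoding, of which 5 were tested. Gm53, upstream of Hoxb9, was at 2.14 and 1.53 CPM in Hdac2 EtOH and at 7.06 and 5.95 CPM in Hdac2 4OHT (1.81 ± 0.34 SE, adjusted p = 0.012). The pseudogene Gm11539, next to Gm53, was at 113.0 and 109.0 CPM against 49.0 and 44.4 CPM (-1.25 ± 0.26 SE, adjusted p = 0.014). Haglr, a long noncoding RNA that starts beside Hoxd1 on the other strand, had 30 counts in Hdac2 EtOH and 0 in Hdac2 4OHT. Haglr needed an Hdac2 EtOH library to pass the filter, which favoured this sign. Against a floor of 3 counts over the group it was 9.32-fold lower (edgeR adjusted p = 0.019), a ratio that leaves out the error of the EtOH counts.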

How the data were processed

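RNA from the 8 samples (200 ng each) went into a strand-specific Agilent library kit with 15 amplification cycles, per the labels' protocols. The authors deposited raw counts (whole numbers of reads for each gene) in a single table, whose 8 columns carry the names in the sample descriptions. The submitters' processing notes name edgeR 3.8.5, Bowtie2 2.2.1, bcl2fastq 2.17.1.14, R 3.1.0 and SAMtools 0.1.19 without their roles, and mm10 as the build. Neither the counting program nor the annotation nor the strand setting is stated there, so values of overlapping genes are uncertain.

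Genes were filtered with filterByExpr (minimum count 10, about 0.687 CPM in a library of median size), which left 14179 genes holding 99.9% of counts. Libraries were scaled by TMM, and edgeR 4.0.16 (R 4.3.3) fitted a robust quasi-likelihood model with a mean per group to all 8 libraries, which pools the spread over the groups. The Benjamini-Hochberg adjustment ran over all tested genes within a comparison, at 0.05. Standard errors came from the F statistic. Levels per kilobase used the union of exons in GENCODE M21, and promoter windows came from RefSeq (GRCm38.p6). Alternatives used DESeq2 1.42.0, limma 3.58.1 (voom), other scalings and filters, a replicate block, fits of the compared groups alone, and each library left out in turn. The scripts were tested on simulated data. Reads copied by PCR and carrying no molecular identifiers are not independent, so floors cover counting error only.

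The members, gene lists and tests were chosen with earlier results of these data known. Members are accounted for by name or in counts, and a few genes covered by the rules are not reported here. Values in each library are given for members called in any comparison and for those with a mean of at least 5 CPM, and of each list up to 4 called genes with the smallest adjusted p per comparison are named. The lists were HOX cofactors, Trithorax and Polycomb genes, posterior and primitive streak inputs, retinoic acid inputs, other homeobox genes, the neighbourhood of the clusters, and markers of endothelium, blood, pluripotent, neural, cardiac, smooth muscle and mesenchymal, paraxial and limb, endoderm and trophoblast cells.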

Additional observations from a re-analysis of the deposited data

How the results depend on the processing

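In Hdac2 4OHT against EtOH the 3 members became 11 when the compared groups were fitted alone, and with single libraries left out the count ran from 0 to 6 members and from 0 to 6422 genes (5113 with all libraries). For the difference between the lines, 0 members became 1 with DESeq2 (1711 genes) and 1 without a filter (1187 genes), and the 4 genes became 11 with library size only and 1 with limma-voom. Leaving out libraries gave 0 to 2 members and 0 to 3740 genes there. In the Hdac1 line, DESeq2 called 32 genes and the fit without a filter 4, and members stayed at 0 under every alternative. Between the EtOH libraries the 5 members became 0 and the 1323 genes 141 when these groups were fitted alone. The genes numbered 2771 with DESeq2 and 2064 without a filter, and leaving out libraries gave 0 to 9 members and 1 to 3871 genes. The share of called genes that were higher was 52.4% in the Hdac2 line (43.5% with upper quartile scaling) and 31.1% between the EtOH libraries (20.2% with library size only). No named member changed sign where it had been called. The cause of these shifts was not tested.

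With the replicate number as a block, the Hdac2 line had 3624 called genes and 2 members, the difference between the lines had 0 genes, and the EtOH comparison had 184 genes and 1 member, Hoxd10. The numbers pair no libraries by label: deviations from the group means of same-numbered libraries had a correlation of -0.76 in the Hdac1 line and 0.33 in the Hdac2 line. A crossed block in the Hdac1 line, chosen after seeing the data, called 858 genes and 0 members there, 8574 and 13 in the Hdac2 line and 5852 and 6 for the difference. Members with at most 4 counts in each group, as Hoxa10, Hoxc6 and Hoxc8 in the Hdac1 line, allow no statement about change at this depth.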
